A study of Caenorhabditis elegans with 42 samples.

Results

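The RNA of embryos that lack working ADR-1 was set directly against the RNA of embryos that lack ADR-2 in the nematode Caenorhabditis elegans. BB19 carries the adr-1 allele tm668 (3 libraries), BB2 the adr-1 allele gv6 (2 libraries), RB886 the adr-2 allele ok735 (3 libraries) and BB3 the adr-2 allele gv42 (3 libraries). These 11 libraries are 11 of the 42 of the series, and they were chosen by the strain and stage that the labels give. Culture was at 20 °C with the bacterium OP50 as food for every strain, and embryos were freed from gravid adults with hypochlorite, so each library holds embryos of many ages. The wildtype N2 (4 embryo libraries) is the common divisor of every ratio and cancels when one gene's mutants are subtracted from the other's. The labels record no backcross, no sorting of cells and no count of embryos, and each allele is represented by 1 strain.

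ADARs are enzymes that convert adenosine to inosine in double-stranded RNA. In this worm ADR-2 is the active deaminase, whereas ADR-1 binds double-stranded RNA, lacks deaminase activity and alters which adenosines ADR-2 edits. An adr-2 mutant therefore lacks this editing, and an adr-1 mutant still edits but with a changed pattern. Embryonic RNA is a mixture of transcripts loaded by the mother and transcripts made by the embryo, and the second kind gains weight as tissues form.

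The direct difference of a gene is the average log2 ratio to N2 of BB19 and BB2 minus the average of RB886 and BB3, each ratio taken between group means with a pseudocount of 1. A positive difference means more RNA in adr-1 than in adr-2 embryos. The deposited values are group means, so the replicates are the 2 strains of each gene. An exact permutation test of 2 strains against 2 cannot go below p = 0.333, and limma, which borrows the spread of all transcripts, was used with Benjamini-Hochberg adjustment. Depth per library is unknown. Of 30304 genes, 15556 had an average level of at least 10 normalised counts over the 5 strains and were tested. The label of the stage fits the markers: the median level of 43 early zygotic genes was 278 in N2 embryos and 1.86 in N2 L4 larvae, and that of 6 vitellogenin genes was 25.6 in N2 embryos and 3424 in N2 L4 larvae. Levels of different tables are scaled separately. The N2 level of a gene differed between embryo tables by a constant factor of 1 to 1.05.

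The targeted genes came first as a check of the labels. adr-1 had mean normalised counts of 1520 in BB19 and 1110 in BB2, against 6310 in RB886 and 6550 in BB3, with 6290 in N2. Both adr-1 strains were low and both adr-2 strains were at the N2 level. The difference was -2.3 on the log2 scale (95% interval -2.76 to -1.84), and its limma adjusted p of 0.0877 missed the threshold of 0.05. adr-2 had means of 1800 in BB19 and 1790 in BB2, against 133 in RB886 and 117 in BB3, with 2010 in N2. The adr-2 strains lay far below the others, and the difference was 3.84 (95% interval 3.66 to 4.02, limma adjusted p = 0.000442). The RNA of each targeted gene was reduced in its own mutants and close to N2 in the mutants of the other gene.

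Differences between the genes were small for most transcripts but in the median larger than differences between alleles. Over 10206 genes with a mean of at least 100, the median absolute log2 difference was 0.0970 between BB19 and BB2 and 0.0965 between RB886 and BB3. Between an adr-1 and an adr-2 strain it was 0.152 to 0.194. These ratios were not centred. Their median was -0.074 in BB19 and -0.073 in BB2, against -0.010 in RB886 and 0.009 in BB3. The part of this shift in the larger values between the genes was not tested. The adr-1 alleles differed most at genes that were higher in BB2: 282 of these genes were at least 2-fold higher in BB2 than in BB19, of which 159 have tRNA gene names and 194 either such a name or means shared with another gene. Of the 282 genes, 2 had both adr-1 strains on the same side of both adr-2 strains. RB886 and BB3 were at least 2-fold apart at 8 genes. Across the genes the count of genes 2-fold apart was 43 for BB19 and RB886, 12 for BB19 and BB3, 183 for BB2 and RB886, and 108 for BB2 and BB3. By this count the adr-1 alleles, at 286 genes, were farther apart than any of these pairs.

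By limma, 5 genes passed the adjusted threshold, 4 higher in adr-1 embryos (0.0257% of genes tested) and 1 lower (0.00643%). At an unadjusted p under 0.05, 2200 genes were higher (14.1%) and 1703 lower (10.9%). A second description asked for both adr-1 strains above, or both below, both adr-2 strains, here called separated. By that rule 4434 genes were higher (28.5%) and 5173 lower (33.3%). This split depends on scale: when the ratios of each strain were centred on their median, 5531 genes were separated higher and 3232 lower. With a difference of at least 2-fold as well, 84 genes were higher (0.540%) and 25 lower (0.161%). In 22 of the 84 and 9 of the 25, every one of the 4 strain pairs was at least 2-fold apart. Calls depended on the strains used: without BB19 limma called 1131 genes higher and 672 lower, without BB2 59 higher and 194 lower, and without RB886 or without BB3 none in either direction.

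The 4 genes that limma called higher in adr-1 than in adr-2 embryos were adr-2 itself, which was low in its own mutants, and 3 neighbouring genes of chromosome V. These were Y102A5C.36, Y102A5C.5 and Y102A5C.6. Y102A5C.36 had mean normalised counts of 29.2 in BB19 and 35.8 in BB2 and was listed at 0 in RB886 and in BB3, with 10.3 in N2. Its fold has no bound against means of 0, and limma gave an adjusted p of 0.0142. Both adr-1 strains stood above N2. Y102A5C.5 had means of 27.1 and 37.8 in BB19 and BB2, against 0.927 and 0.549 in RB886 and BB3, with 18.7 in N2 (limma adjusted p = 0.0298). Y102A5C.6 had means of 32.6 and 35.2 in BB19 and BB2, against 1.25 and 1.71 in RB886 and BB3, with 21.1 in N2 (limma adjusted p = 0.0298). Both adr-1 strains lay above both adr-2 strains at all 3 genes, as they did at 28.5% of all genes tested. The genes are near one another in the WBcel235 annotation, and whether they share reads was not tested.

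**Figure D1:**
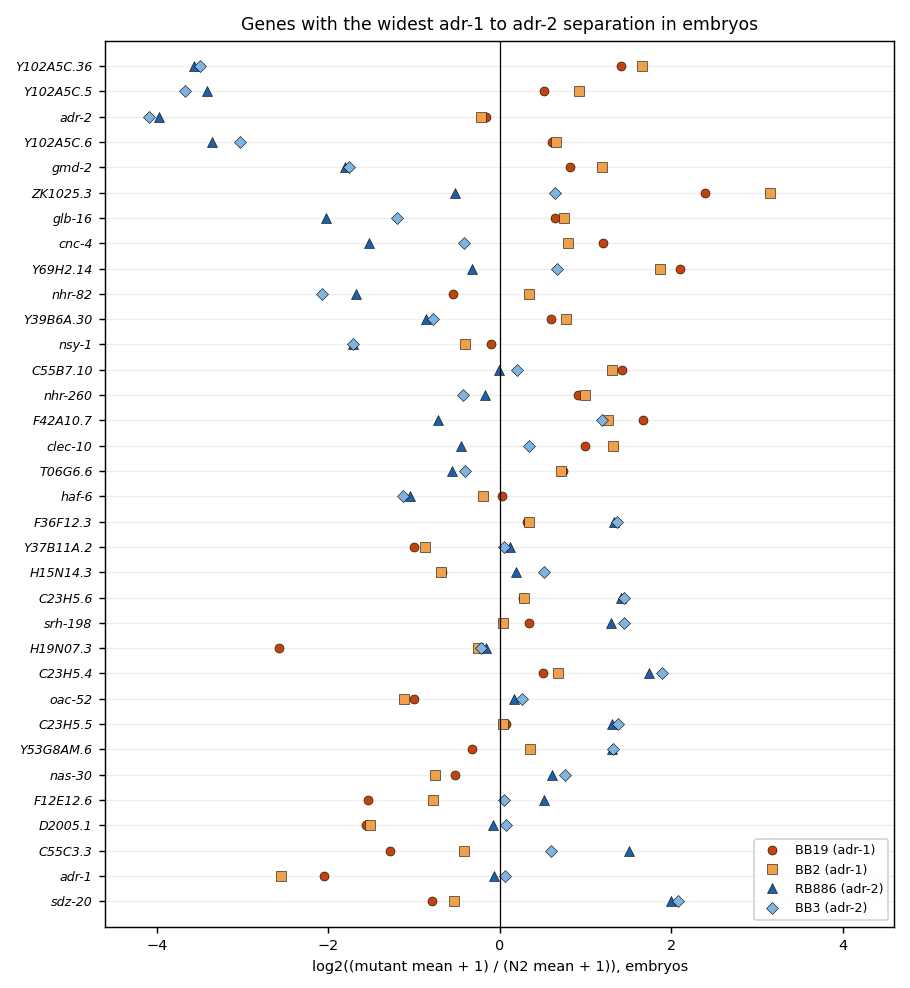
Each row is a gene named for its wide separation or high level, ordered by the adr-1 minus adr-2 difference; the horizontal axis is log2((mutant mean + 1) / (N2 mean + 1)) in embryos, and each symbol is 1 strain, with no error bar because the deposited values are group means. The upper rows have BB19 and BB2 to the right of RB886 and BB3, and the lower rows the reverse; at H19N07.3 and F42A10.7 1 strain sets the difference.

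Among genes below the threshold, the widest separation belonged to gmd-2, which encodes a GDP-mannose dehydratase, an enzyme of fucose synthesis. Its means were 27.3 in BB19 and 36.6 in BB2, against 3.81 in RB886 and 3.72 in BB3, with 15 in N2. The adr-1 strains lay above N2 and the adr-2 strains below it, and the difference was 2.79 (95% interval 2.23 to 3.35, limma adjusted p = 0.0877). glb-16, a globin gene, had 26.7 and 29.8 in BB19 and BB2, against 3.55 and 6.77 in RB886 and BB3, with 16.8 in N2. It too had a strain order of adr-1 above N2 above adr-2, with a difference of 2.3 (limma adjusted p = 0.152). ZK1025.3 had 72.2 and 128 in BB19 and BB2, against 9.23 and 20.8 in RB886 and BB3, with 13 in N2. Here the adr-2 strains bracketed N2 and the adr-1 strains alone were high. Its neighbours ZK1025.2 and ZK1025.8 share all their means with each other, so their reads cannot be assigned.

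Further named genes higher in adr-1 embryos had roles in signalling, defence and RNA interference. nsy-1, which encodes a MAP kinase kinase kinase upstream of p38, had mean normalised counts of 2870 in BB19 and 2390 in BB2, against 984 in RB886 and 933 in BB3, with 3070 in N2. Only the adr-2 strains departed from N2 by 1.5-fold or more, and the difference was 1.46 (95% interval 1.16 to 1.75, limma adjusted p = 0.0877). cnc-4, an antimicrobial peptide of the caenacin family, had 55.3 and 42.7 in BB19 and BB2, against 7.89 and 17.3 in RB886 and BB3, with 23.4 in N2. RB886 was the lowest, BB3 was nearer to N2, and the difference was 1.97 (limma adjusted p = 0.152). haf-6, an ABC transporter required for RNA interference, had 366 and 327 in BB19 and BB2, against 182 and 165 in RB886 and BB3, with 361 in N2. Its adr-1 strains were at the N2 level and its difference of 1.00 was the smallest that met the 2-fold rule; M176.8, with 0.997, was the nearest gene outside it. The nuclear receptor gene nhr-82 had 14.9 and 29.6 in BB19 and BB2, against 6.67 and 4.57 in RB886 and BB3, with 22.3 in N2.

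D2005.1 was the gene that limma called lower in adr-1 than in adr-2 embryos. Its mean normalised counts were 322 in BB19 and 345 in BB2, against 944 in RB886 and 999 in BB3, with 949 in N2. The adr-1 strains were low and the adr-2 strains at the N2 level, the same order as at adr-1, and the difference was -1.53 (95% interval -1.73 to -1.34, limma adjusted p = 0.0256). D2005.1 and H15N14.3, a separated gene with a difference of -1.03, form a run with adr-1 on chromosome I. Each gene of the run lies within 10 tested genes of the next, by WBcel235 gene order. H15N14.3 had 7.71 and 7.88 in BB19 and BB2, against 15.5 and 18.8 in RB886 and BB3, with 12.9 in N2. Linkage to the adr-1 alleles and an action of ADR-1 cannot be told apart for these neighbours, since both alleles lie at the same place.

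Other genes lower in adr-1 embryos departed from N2 on either side. sdz-20, named for its dependence on the endoderm regulator SKN-1 in the zygote, had mean normalised counts of 2.77 in BB19 and 3.63 in BB2, against 26 in RB886 and 26.4 in BB3, with 5.51 in N2. Its adr-2 strains were the high ones, and the difference was -2.70 (95% interval -3.25 to -2.15, limma adjusted p = 0.0877). nas-30, an astacin metalloprotease gene, had 110 and 97.3 in BB19 and BB2, against 254 and 269 in RB886 and BB3, with 159 in N2. It was low in adr-1 strains and high in adr-2 strains, with a difference of -1.32 (limma adjusted p = 0.152). C23H5.6 had 57.5 and 60.3 in BB19 and BB2, against 134 and 132 in RB886 and BB3, with 47.6 in N2, and its neighbours C23H5.4 and C23H5.5 had differences of -1.22 and -1.29. At all 3 genes of this run on chromosome IV the adr-2 strains were above N2. oac-52, an acyltransferase-family gene, had 27.6 and 26.2 in BB19 and BB2, against 66.3 and 67.2 in RB886 and BB3, with 56.0 in N2, so that the adr-1 strains were the ones that departed.

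Setting each strain against N2 showed which gene's mutants made the difference. Of the 84 genes higher by 2-fold, 55 had both adr-1 strains at least 1.5-fold above N2 with the adr-2 strains not both departing. At 8 genes both adr-2 strains were at least 1.5-fold below N2 and the adr-1 strains did not both depart, namely adr-2, nsy-1, haf-6, lact-6, nhr-82, oac-1, C06E2.1 and Y102A5C.5. At 5 genes the adr-1 strains were above and the adr-2 strains below, namely Y102A5C.36, Y102A5C.6, Y39B6A.30, glb-16 and gmd-2. The remaining 16 met neither rule. Of the 25 genes lower by 2-fold, 10 had both adr-1 strains at least 1.5-fold below N2 and 10 had both adr-2 strains at least 1.5-fold above it, and 5 met neither rule. C08F11.1 shows what the direct comparison removes: its log2 ratio to N2 was 5.54 in BB19, 5.51 in BB2, 5.71 in RB886 and 5.28 in BB3, and its difference was 0.03.

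Oocyte and germline genes were lower in adr-1 embryos as a group. Of 60 tested members, 59 were separated lower (33.3% of all genes) and 0 higher (28.5%), and the median difference was -0.374, against -0.0263 over all genes tested; 0 members passed the adjusted limma threshold and 45 had an unadjusted p under 0.05, all lower (10.9% of all genes). The group's median log2 ratio to N2 was -0.21 in BB19 and -0.19 in BB2, against 0.22 in RB886 and 0.12 in BB3. The adr-1 strains were below N2 and the adr-2 strains above it. In the authors' deposited table at an adjusted p under 0.05, 45 members were lower in BB19 and 45 in BB2 (28.7% and 28.8% of all genes), while 47 were higher in RB886 and 34 in BB3 (15.3% and 16.9% of all genes). The 4 tables share the N2 libraries.

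The members include the genes of the germ granule, the RNA-protein body of germ cells. glh-4, which encodes a Vasa-like helicase, had mean normalised counts of 623 in BB19 and 706 in BB2, against 1710 in RB886 and 1030 in BB3, with 1190 in N2. Both adr-1 strains were low and RB886 was the high one, and the difference of -0.99 was the most negative of the group (limma adjusted p = 0.152). mex-1, an RNA-binding protein of germline blastomeres, had 2070 and 1870 in BB19 and BB2, against 3590 and 3100 in RB886 and BB3, with 2730 in N2. Its difference was -0.75 (limma adjusted p = 0.152), with adr-1 strains below N2 and adr-2 strains above. glh-2 and meg-2, also of the germ granule, had differences of -0.74 and -0.65. The smallest in size was mbk-2, a kinase of the oocyte-to-embryo transition, with -0.07.

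Genes of dividing cells were also lower in adr-1 than in adr-2 embryos, at a smaller size. Of 54 cell cycle and replication genes, 52 were separated lower (33.3% of all genes) and 0 higher (28.5%), with a median difference of -0.212. Their median log2 ratio to N2 was -0.13 in BB19 and -0.19 in BB2, against -0.02 in RB886 and 0.06 in BB3. mcm-5, a subunit of the replicative helicase, had 3530 in BB19 and 3240 in BB2, against 4680 in RB886 and 4450 in BB3, with 4540 in N2 and a difference of -0.42. Its deposited ratio to N2, scaled for each strain, was 0.983 in RB886 and 0.980 in BB3, so neither adr-2 strain was above N2. cye-1, which encodes cyclin E, had a difference of -0.29. Of 71 histone genes 60 were separated lower and 2 higher (median -0.218), of which 30 share all their means with another gene. The linker histone gene his-24 had the largest histone difference, -0.53. Of 43 early zygotic genes, 28 were separated lower and 2 higher (median -0.176), and the tissue fate factors were mixed, with 18 of 37 lower and 9 higher.

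Genes of differentiated neurons were higher in adr-1 embryos. Of 80 tested neuronal genes, 57 were separated higher (28.5% of all genes) and 4 lower (33.3%), and the median difference was 0.290. By limma 0 passed the adjusted threshold, while 39 were higher (14.1% of all genes) and 1 lower (10.9%) at an unadjusted p under 0.05. The median log2 ratio to N2 was 0.37 in BB19 and 0.40 in BB2, against 0.02 in RB886 and 0.12 in BB3. In the authors' deposited table at an adjusted p under 0.05, 61 members were higher in BB19 and 59 in BB2 (20.9% and 29.1% of all genes), while 25 were higher in RB886 and 36 in BB3 (15.3% and 16.9% of all genes). avr-14, a glutamate-gated chloride channel, had mean normalised counts of 186 in BB19 and 204 in BB2, against 132 in RB886 and 128 in BB3, with 116 in N2, and a difference of 0.59 (limma adjusted p = 0.152). ocr-2, a TRPV channel of sensory neurons, had a difference of 0.70, and tph-1, the rate-limiting enzyme of serotonin synthesis, 0.57. tph-1 had 100 and 100 in BB19 and BB2, against 70.7 and 63.9 in RB886 and BB3, with 85.1 in N2. The summed mean of the 80 genes was 114% of N2 in BB19 and 98.8% in BB2, against 95% in RB886 and 106% in BB3, so the sum, which the most abundant members set, did not separate the genes.

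Neuropeptide and potassium channel genes had wider differences. Of 57 tested flp and nlp neuropeptide genes 44 were separated higher (28.5% of all genes) and 3 lower (33.3%), with a median difference of 0.459. nlp-5 had 40.0 in BB19 and 48.5 in BB2, against 20.8 in RB886 and 22.5 in BB3, with 15.1 in N2 and a difference of 1.01 (limma adjusted p = 0.152). All 4 strains were above N2 at nlp-5, the adr-1 strains more so. flp-6 and flp-5 had differences of 0.67 and 0.78. Of 34 tested twk genes, which encode potassium leak channels, 25 were separated higher and 0 lower (median 0.377). twk-23 had 35.9 and 32.9 in BB19 and BB2, against 17 and 18.1 in RB886 and BB3, with 14.8 in N2.

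**Figure D2:**
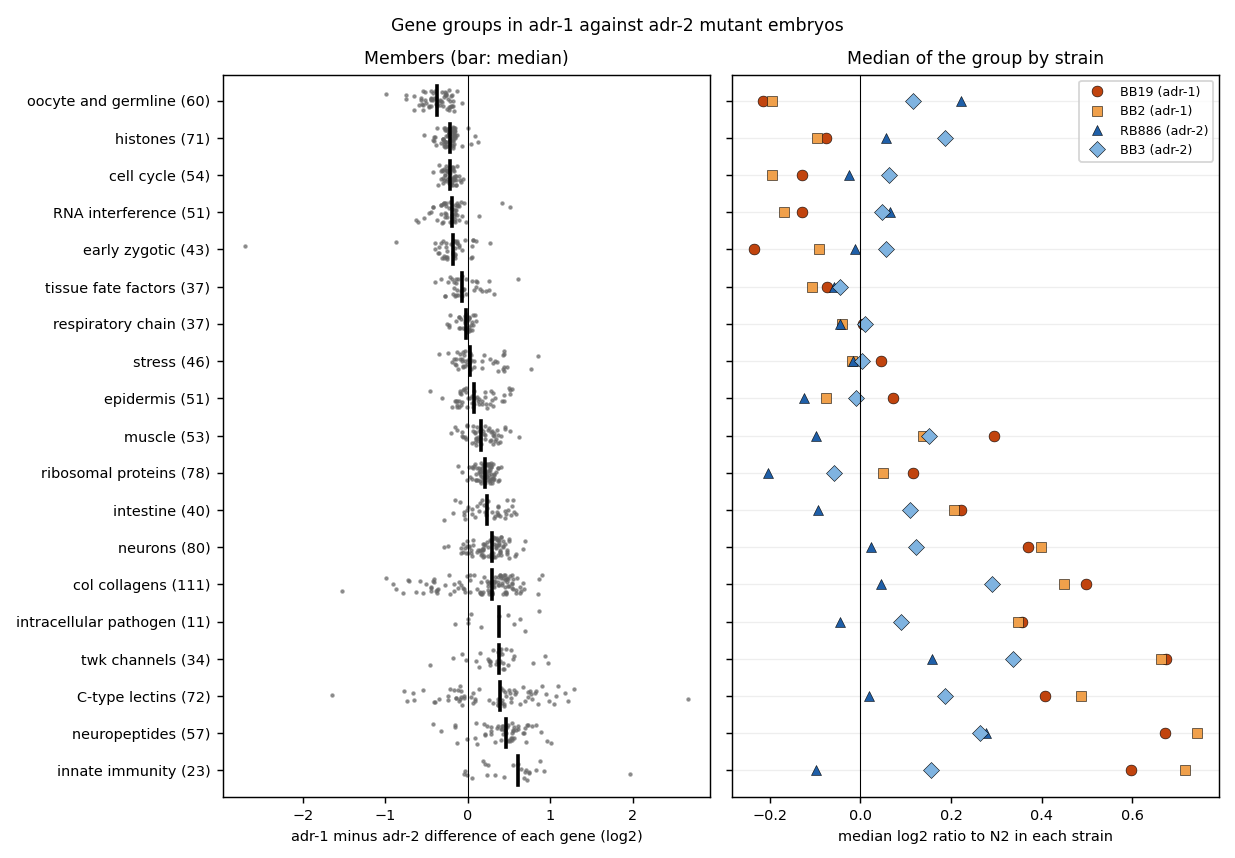
Left, each point is a tested gene of a group and the bar its median, on an axis of the adr-1 minus adr-2 log2 difference; right, the median log2 ratio to N2 of each group in each strain, with the number of genes in parentheses at the left and no error bars. Oocyte and germline genes lie at -0.374 and innate immunity genes at 0.614 at the ends of the groups drawn, and at most groups BB19 and BB2 lie on one side of RB886 and BB3.

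Muscle, gut and epidermis genes were less uniform. Of 53 muscle genes 27 were separated higher (28.5% of all genes) and 1 lower (33.3%), with a median of 0.164 that ran from 0.0657 to 0.300 when a strain was left out. tnc-2, which encodes a troponin C, had 275 in BB19 and 308 in BB2, against 175 in RB886 and 207 in BB3, with 180 in N2 and a difference of 0.62. The summed mean of the muscle genes was 125% of N2 in BB19 and 108% in BB2, against 97.1% in RB886 and 120% in BB3, so BB3 and BB2 overlapped in the sum. Of 40 intestinal genes 23 were separated higher and 3 lower (median 0.240). Their summed mean was 118.5% of N2 in BB19 and 103.6% in BB2, against 91.8% in RB886 and 103.9% in BB3. pho-1, an intestinal acid phosphatase, had 521 and 530 in BB19 and BB2, against 351 and 384 in RB886 and BB3, with 283 in N2. Of 51 epidermal and matrix genes 21 were separated higher and 6 lower (median 0.081), with a summed mean of 106% of N2 in BB19 and 87.7% in BB2, against 91.7% in RB886 and 103% in BB3. Neither the intestinal nor the epidermal sum separated the genes. Of 111 tested col collagen genes, which build the cuticle, 53 were separated higher and 14 lower (median 0.292).

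The markers above also track the age of embryos and what else a sample holds. In bulk samples, fewer cells of a type and less RNA per cell cannot be told apart. The whole vitellogenin list, the yolk proteins of adults, had 0 of 6 members separated, with summed means of 58.9% of N2 in BB19 and 103% in BB2, against 129% in RB886 and 80.3% in BB3. Of 11 major sperm protein genes 1 was separated higher (28.5% of all genes) and 1 lower (33.3%). Their sums were 74.5% and 77.0% of N2 in BB19 and BB2, against 83.3% and 71.3% in RB886 and BB3. No tested member of these lists was listed at 0. The oocyte and germline genes summed to 86.7% and 84.1% of N2 in BB19 and BB2, against 110% and 107% in RB886 and BB3. The part of embryo age in the differences was not tested.

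A further split used the level of each gene in N2 at both stages. Of 1351 genes at least 4-fold higher in N2 L4 larvae than in N2 embryos, 51.3% were separated higher in adr-1 embryos and 12.2% lower, with a median difference of 0.288. Of 1993 genes at least 4-fold higher in N2 embryos, 20.4% were separated higher and 42.3% lower, with a median of -0.111. The 12212 genes in between had a median of -0.029. Of the 84 genes higher by 2-fold, 39 were in the class that is higher in N2 L4 larvae. Across the 15556 genes, which are not independent replicates, the difference had Pearson's r = -0.239 and Spearman's rho = -0.264 with the log2 ratio of N2 embryos to N2 L4 larvae. Genes at least 4-fold lower in N2 embryos than in N2 L4 larvae were thus more often higher in adr-1 than in adr-2 embryos. The median log2 ratio to N2 of this class was 0.45 in BB19 and 0.53 in BB2, against 0.15 in RB886 and 0.27 in BB3. It was thus above N2 in all 4 strains. Genes low in N2 embryos can pass the level filter through the strains where they are high. The N2 embryo level largely cancels in the difference.

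**Figure D3:**
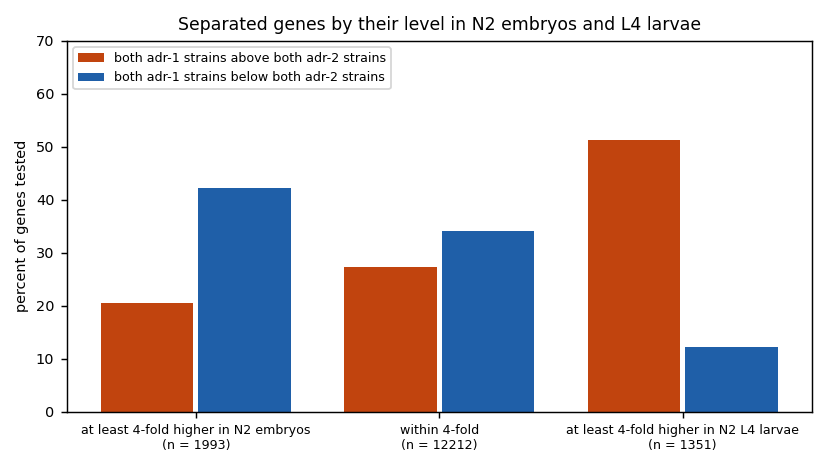
Bars give the percent of tested genes with both adr-1 strains above both adr-2 strains (left bar of each pair) or below them (right bar), for genes grouped by their level in N2 embryos and N2 L4 larvae; n is the number of genes, and a percent of a whole class has no error bar. The share above is 51.3% in the class higher in N2 L4 larvae and 20.4% in the class higher in N2 embryos.

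Ribosomal protein genes, which are used in every cell, were higher in adr-1 embryos as a group. Their median level was 2114 in N2 embryos and 5002 in N2 L4 larvae. Of 78 tested members, 67 were separated higher (28.5% of all genes) and 0 lower (33.3%), with a median difference of 0.215. Their median log2 ratio to N2 was 0.12 in BB19 and 0.05 in BB2, against -0.20 in RB886 and -0.06 in BB3. At an adjusted p under 0.05 in the authors' deposited table, more ribosomal protein genes were higher in BB19 (57) and BB2 (35) than lower (6 and 11), against 20.9% and 29.1% of all genes. In RB886 67 were lower and in BB3 55, against 15.3% and 10% of all genes in that deposited table. rpl-27 had 2490 and 2450 in BB19 and BB2, against 1810 and 1960 in RB886 and BB3, with 2080 in N2, and a difference of 0.40. The respiratory chain gave no such order: of 37 genes 6 were separated higher and 7 lower, and the median was -0.015, a value whose sign changed to 0.05 when the ratios were centred. Stress and protein-folding genes had 11 of 46 separated higher (28.5% of all genes) and 6 lower (33.3%), with a median of 0.029. Their differences ran from -0.35 to 0.85, the value of hsp-17, a small heat shock protein, and the glutathione transferase gst-4 had 0.76.

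Defence genes had wide differences. Of 47 innate immunity genes 23 passed the level filter, of which 15 were separated higher (28.5% of all genes) and 0 lower (33.3%), with a median difference of 0.614. Genes that pass through a high level in 1 group alone are favoured by such a filter, and the 24 others were not tested. lys-1, a lysozyme gene, had mean normalised counts of 313 in BB19 and 329 in BB2, against 153 in RB886 and 214 in BB3, with 193 in N2. Its adr-1 strains were high, RB886 was below N2 and BB3 slightly above, with a difference of 0.83. dod-17 had 79.8 and 83.4 in BB19 and BB2, against 33.6 and 53.9 in RB886 and BB3, with 32.4 in N2. Of 265 C-type lectin genes, whose products bind sugars and include many defence proteins, 72 were tested, of which 38 were separated higher and 13 lower. Their median of 0.389 was 0.062 with no filter on the level. clec-10 had 145 and 188 in BB19 and BB2, against 55.0 and 91.3 in RB886 and BB3, with 72.2 in N2.

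The intracellular pathogen response, a set of genes that viral and microsporidian infection induces, had 11 of 21 members tested, with 7 separated higher (28.5% of all genes) and 1 lower (33.3%). The median of 0.374 was 0.044 among members with a mean of at least 100 and 0.201 without RB886. C28G1.5, named rcs-1 in the WBcel235 annotation, had 111 in BB19 and 122 in BB2, against 63.7 in RB886 and 81.7 in BB3, with 53.1 in N2. F22G12.1, named pals-14 there, had 26.5 and 25.7, against 11.4 and 17, with 12.4 in N2, so that both adr-1 strains were above both adr-2 strains and RB886 was below N2. Detoxification genes of the cyp and ugt families had 41 of 107 separated higher (28.5% of all genes) and 15 lower (33.3%), with a median of 0.107 that was 0.026 among members with a mean of at least 100. Nuclear receptor genes had 98 of 194 separated higher and 21 lower. The p38 kinase list had a median of 0.02. Apart from nsy-1, the other 15 genes had differences between -0.12 and 0.43, with jnk-1, a JNK kinase, at the upper end.

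Genes of RNA interference and small RNA pathways were mostly lower in adr-1 embryos. Of 51 tested members, 42 were separated lower (33.3% of all genes) and 3 higher (28.5%), with a median difference of -0.194, or -0.126 with centred ratios. F58G1.1, named wago-4 in the WBcel235 annotation and an Argonaute of the germline, had mean normalised counts of 436 in BB19 and 413 in BB2, against 648 in RB886 and 651 in BB3, with 492 in N2. The adr-1 strains were below N2 and the adr-2 strains above it, and the difference was -0.60 (limma adjusted p = 0.152). T23D8.7, named alg-5 there and also an Argonaute, had a difference of -0.53. The 3 separated higher were F14B8.2, drh-2 and sid-2, and 6 members were not separated. haf-6, the transporter gene with a difference of 1.00 described above, is not a member of this list. sid-2, which brings double-stranded RNA in from the gut lumen, had 93.0 and 101 in BB19 and BB2, against 74.2 and 62.0 in RB886 and BB3, with 47.8 in N2. drh-2, a Dicer-related helicase gene, had a difference of 0.42.

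Transcripts with long-known editing sites did not share a direction. Of 9 tested, 4 were separated higher (28.5% of all genes) and 2 lower (33.3%), with a median difference of 0.038. alh-7, an aldehyde dehydrogenase gene, had mean normalised counts of 796 in BB19 and 743 in BB2, against 1170 in RB886 and 1150 in BB3, with 1190 in N2. The adr-1 strains alone were low, with a difference of -0.58 (limma adjusted p = 0.152). clec-41 had 490 and 490 in BB19 and BB2, against 259 and 320 in RB886 and BB3, with 244 in N2 and a difference of 0.77. rncs-1, a noncoding RNA that folds into a long duplex, had 79.0 and 92.2 in BB19 and BB2, against 54.6 and 68.5 in RB886 and BB3, with 114 in N2. All 4 strains were below N2 at rncs-1, and the difference was 0.49. dop-3 and ssr-2 had differences of 0.52 and 0.32, laf-1 and pop-1 both -0.16, and lam-2 and syd-2 -0.07 and 0.04.

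L4 larvae of the same strains, set against other N2 libraries, gave a second view of the same difference. limma called 1 gene higher there (0.00605% of 16531 genes tested) and 0 lower, while 2980 (18%) were separated higher and 3058 (18.5%) lower. At an unadjusted p under 0.05, 457 genes were higher at L4 (2.76%) and 1097 lower (6.64%). The called gene was Y102A5C.36, with L4 means of 103 in BB19 and 66.6 in BB2 and a listing at 0 in RB886 and BB3 (adjusted p = 0.0243). This call was lost whichever strain was left out. Of the 84 embryonic genes higher by 2-fold, 76 were tested at L4, 49 had the same sign (64.5%, against 54.1% of all genes with a positive embryonic difference) and 11 were also 2-fold higher and separated (0.472% of all L4 genes). These 11 include adr-2, the 3 Y102A5C genes, haf-6, lact-6 and glb-16. In the opposite direction 16 of the 76 were separated at L4, of which clx-1 and cyp-37B1 by 2-fold. Over all 6536 genes with a positive embryonic difference tested at L4, 1028 were separated in the opposite direction. Of the 25 lower genes 17 were tested at L4, all 17 had the same sign (41.2% over all genes with a negative embryonic difference), and 6 were also 2-fold lower and separated (0.575% of all L4 genes), namely adr-1, D2005.1, nas-30, C23H5.4, C23H5.6 and Y53G8AM.6. haf-6 had L4 means of 713 and 471 in BB19 and BB2, against 158 and 149 in RB886 and BB3, with 648 in N2. nas-30 had L4 means of 51.7 and 89.3 in BB19 and BB2, against 356 and 303 in RB886 and BB3, with 484 in N2.

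The gene groups had other values at L4, where 18% of all genes tested were separated higher and 18.5% lower. The oocyte and germline genes had an L4 median difference of -0.06, with 0 of 60 separated higher and 5 lower, and the cell cycle genes a median of -0.001. The neuronal genes had a median of -0.02 at L4, with 11 of 80 separated higher and 12 lower. Histone genes had a median of 0.12 at L4, with 19 of 71 separated higher and 1 lower, and col collagen genes one of -0.27, with 4 of 106 higher and 20 lower. Ribosomal protein genes kept the embryonic sign, with 47 of 78 separated higher and 0 lower and a median of 0.16. The stage difference itself was tested gene by gene: limma called 0 of 13988 genes at an adjusted p under 0.05 and 1476 (10.6%) at an unadjusted p under 0.05. Among the group members tested at both stages, 12 of the 80 neuronal, 9 of the 60 oocyte and germline, and 0 of the 78 ribosomal protein genes had an unadjusted p under 0.05. In the L4 tables BB2 kept more adr-1 RNA than BB19, with means of 1590 in BB2 and 1020 in BB19, against 3430 in RB886 and 3300 in BB3.

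The positions of the 2-fold genes were read from the WBcel235 annotation. Chromosome V held 30 of the 84 higher genes (35.7%) and 17.9% of genes tested, and chromosome I held 16 of the higher genes (19%) and 6 of the lower ones (24%), with 15.5% of genes tested. Runs were defined as 2-fold genes of 1 direction, each within 10 tested genes of the next. By this rule 30 of the 84 higher genes fell into 11 runs and 6 of the 25 lower genes into 2 runs. The longest run, of 5 genes on chromosome I, held nhr-82, gmd-2, oac-45, oac-43 and clec-17. The detoxification genes ugt-18 and ugt-15, and the genes cnc-4 and nhr-260, lay in runs on chromosome V. Whether neighbours share reads was not tested.

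RNA bound by FLAG-tagged ADR-1 in young adults gave another readout. Of genes that the authors list as bound in HH76, which has adr-2, 1071 were tested here, with a median difference of 0.058, and 39.3% were separated higher and 25.1% lower. Of genes listed as bound in HH134, which lacks adr-2, 1048 were tested, with a median of 0.018, and 36.9% were separated higher and 29.2% lower. The bound genes thus had a larger share on the higher side than all genes (28.5%) and a smaller share on the lower side (33.3%), a description with no test. The lists rest on fold changes over a negative control pull-down, from the strain BB21 that the labels title Adr-1. Of 728 tested genes bound in both strains, 7 met the 2-fold rule, which 0.540% of all genes met as higher and 0.161% as lower. C24G7.4, ZK896.1 and nas-11 were higher in adr-1 embryos, and D2005.1, adr-1, oac-52 and C23H5.5 lower. D2005.1, adr-1 and oac-52 were also below N2 in both adr-1 strains. Whether low RNA in the control raised the fold change of these genes was not tested. haf-6 and adr-2 were listed in HH134 alone.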

How the data were processed

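Per the labels' protocols, ribosomal RNA was removed from the high molecular weight RNA and libraries were made with a stranded kit. How strand entered the counting is not stated. Bowtie, DESeq and build ce10 appear in the submitters' processing notes without a version or role. The authors deposited, for each mutant strain and stage, a table with a line per transcript (34873 in all). Its signal, per the file headers, is the mean normalised count of a group's libraries, scaled in each table. The authors also deposited the ratio (fold change) of mutant to N2 means and its adjusted p-value, and for RNA bound by ADR-1 a log2 fold change. No value per library was used, so depth per library is unknown and counting intervals cannot be given. 0 columns of per-sample values were left unused.

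From these, log2 ratios with a pseudocount of 1 were computed for 19753 transcripts with a mean of at least 10 over the 5 strains and fitted with limma 3.58.1 (intensity trend, R 4.3.3), with Benjamini-Hochberg adjustment over all of them. limma was tested on simulated data. The unit is the strain, 2 per gene, and p-values measure the spread between strains. Each gene is shown by its most abundant transcript, and 697 tested genes share all means with another gene. The count test planned for a table of counts could not be used. Genes named are adr-1 and adr-2; in each direction the 15 separated 2-fold genes with the largest smallest gap between strains and no shared means; the 5 most abundant; and up to 4 genes per list. Genes named outside it, such as clx-1, C08F11.1, mbk-2, lact-6, oac-1, C06E2.1, oac-45, oac-43, F14B8.2 and M176.8, were chosen after their values were seen. The members and the 31 gene lists were chosen with earlier results of these data known. Of 3531 list names 3523 were found, some through WBcel235 names. Python 3.11.15 with pandas 2.3.3 and matplotlib 3.10.9 made the summaries and plots. Alternatives were other pseudocounts, filters, centring, limma settings and leaving out each strain.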

Additional observations from a re-analysis of the deposited data

Results flagged for a closer look

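At the 7 genes of this paragraph the adr-1 minus adr-2 difference had opposite signs in embryos and in L4 larvae, with the strains separated at both stages. limma's test of the stage difference did not pass at any of them. Other genes, such as clx-1, met the same rule. gmd-2, the GDP-mannose dehydratase gene, had a difference of 2.79 in embryos and -0.85 at L4, so that the embryonic value exceeded the L4 value by 3.64 (adjusted p = 0.224). Its L4 means were 20.6 in BB19 and 27.9 in BB2, against 40.4 in RB886 and 51.1 in BB3, with 31.8 in N2. cyp-37B1, a cytochrome P450 gene, had 1.33 in embryos and -1.11 at L4, a stage difference of 2.44 (adjusted p = 0.320). Its L4 means were 68.8 and 99.5 in BB19 and BB2, against 155 and 222 in RB886 and BB3, with 232 in N2. pqn-8, a gene of the glutamine- and asparagine-rich pqn class, had 0.75 in embryos and -0.61 at L4, a stage difference of 1.35 (adjusted p = 0.493). Y39B6A.30 had 1.5 in embryos and -0.51 at L4, a stage difference of 2.01 (adjusted p = 0.224). The others were smaller at L4: ocr-2 had a stage difference of 1.07, sid-2 of 0.643 and jnk-1 of 0.538, with L4 differences of -0.37, -0.12 and -0.11. Of the 76 genes that were 2-fold higher in adr-1 embryos and tested at L4, 16 were separated in the opposite direction there and 36 in the same direction (47.4%). Of all 6536 genes with a positive embryonic difference tested at L4, 1028 were separated in the opposite direction and 1455 in the same direction (22.3%).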

How the results depend on the processing

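No paired analysis was possible because the deposited values are group means and carry no replicate number. The count of genes called higher was 1 with a pseudocount of 10, 1 without a filter and 1 with a mean of at least 100, 2 without the trend, and 0 to 1131 when a strain was left out. The count called lower was 0 without a filter and 0 without the trend, 2 with centred ratios and 2 with a robust prior, and 0 to 672 when a strain was left out. Genes 2-fold higher numbered 25 with a pseudocount of 10, 315 without a filter, 7 with a mean of at least 100, 700 at 1.5-fold, 22 with every strain pair 2-fold apart, and 65 to 480 when a strain was left out. Genes 2-fold lower numbered 10, 126, 5, 222 and 9 under these settings, and 38 to 63 when a strain was left out. L4 calls were 0 to 0 and stage calls 0 to 70 when a strain was left out; these L4 alternatives were added after seeing the data. A strain left alone is assumed to vary like the other gene's strains. adr-2 missed the threshold without RB886 (adjusted p = 0.109) and without BB3 (0.121). With single strains left out, the difference of syd-2 ran from -0.027 to 0.103 and that of lam-2 from -0.199 to 0.0602, so that neither has a sign. The group medians of tissue fate factors, the respiratory chain, stress, chemoreceptors, msp genes and editing targets changed sign under at least 1 setting, as did those of epidermal, insulin-like and p38 genes with a strain left out.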

Other observations

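A few genes owed their difference to a single strain. Y19D10A.7 and its neighbour clec-209 met the 2-fold rule with differences of 3.38 and 2.67, but Y19D10A.7 had a log2 ratio to N2 of 0.52 in BB19 and 6.66 in BB2, against 0.42 in RB886 and 0.00 in BB3. The same shape held at clec-209, with 0.57 and 5.10 in BB19 and BB2, against -0.20 and 0.51 in RB886 and BB3. lin-44, a Wnt ligand gene, was low in BB19 alone, with a log2 ratio of -2.72 in BB19 and 0.30 in BB2, against -0.01 in RB886 and -0.04 in BB3, and was not separated. H19N07.3 had mean normalised counts of 41.7 in BB19 and 219 in BB2, against 236 in RB886 and 217 in BB3. Differences at these genes belong to 1 strain and not to both alleles of a gene.

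Most of the other families were mixed, beside 28.5% of all genes separated higher and 33.3% lower. Chemoreceptor genes had 13 of 68 separated higher and 22 lower (median -0.03), insulin-like genes 2 of 10 higher and 1 lower (median -0.12), abu and pqn genes 27 of 63 higher and 19 lower (median 0.09), and body-shape collagens 7 of 20 higher and 4 lower (median 0.12). Among the collagens that shape the body, bli-1 had a difference of -0.65 and dpy-14 one of 0.45. The sdz genes were not mixed, with 19 of 33 separated lower and 1 higher (median -0.15). They share members, such as sdz-20, with the early zygotic genes above.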
